A study of Drosophila melanogaster with 4 samples.

Results

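The extra macrochaetae (emc) locus is described here as the Groucho peaks whose centre lay between 715000 and 800000 on chromosome arm 3L (FlyBase release 5), the window around the gene emc. The window held 39 of the 11165 peaks in the list, and 39 of the 2565 peaks on 3L. The study mapped Groucho on chromatin by immunoprecipitation and sequencing (ChIP-seq). The animals were Drosophila melanogaster at the white prepupal stage, the onset of metamorphosis, with no dissected tissue named. There were 2 Groucho ChIP libraries and 2 input DNA libraries, and ChIP and input came from the same untreated strain, labelled Y cn bw sp. Its recorded alleles were y[1] and oc[R3.2], then Gr22b[1], Gr22d[1] and cn[1], with CG33964[R4.2], bw[1] and sp[1], and finally Rh6[1], GstD5[1], lab[R4.2], LysC[1] and MstProx[1]. The antibody was a rabbit polyclonal serum raised against a peptide of Groucho. The deposited result is 1 list that gives the position of each peak and its score from the peak caller MACS. It has no values for single libraries, so neither replicate error nor depth is known. The window was chosen by place with this list already known to be dense there, so its peak number and scores are given as a description, with no test.

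The gene emc encodes a helix-loop-helix protein that lacks the basic region needed to contact DNA. The protein pairs with the proneural proteins of the achaete-scute family and with their partner Daughterless, and the pairs it forms do not bind DNA. It is known as an inhibitor of bristle and sense organ formation, acting beside the repressor Hairy, and it also has roles in wing vein and eye development. Groucho does not bind DNA by itself. It is a co-repressor recruited by DNA-binding repressors, among them Hairy and the Enhancer of split proteins. The peak list holds no gene names. In the RefSeq gene order of assembly release 6, the nearest genes to emc on both sides are tRNA genes, and the nearest protein-coding genes are hng3 on one side and CG13898 on the other. No coordinates were carried between the releases, so no peak is placed here inside or outside emc or any other gene.

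Groucho peaks filled much of the window. They covered 35236 bases, or 41.5% of its 85 kb, counted base by base and including the part of a peak that crosses an edge. The 39 peaks ranged in width from 203 to 6281 bp, with a median of 507 bp, against a median of 443 bp for the 2565 peaks on 3L. Their scores, which are the authors' own and on a scale that the sources used here do not state, ranged from 8.33 to 241.41. The median score was 16.25, against 18.01 on 3L and 18.38 in the whole list. The locus was crowded with peaks, and 22 of the 39 scored no higher than the median of the list. On 3L 1311 of 2565 peaks did so, and in the whole list 5643 of 11165, so the window's share was near these.

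**Figure D1:**
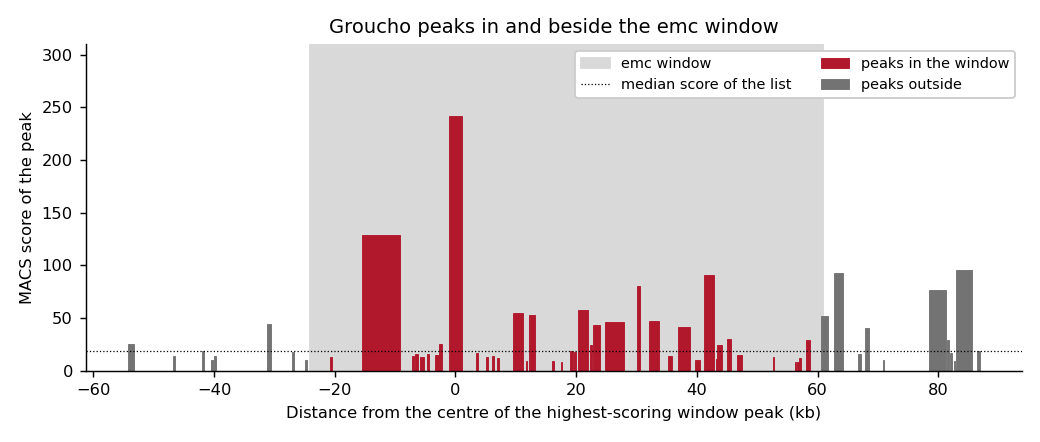
Groucho peaks in and beside the emc window. Each bar is 1 peak, drawn to its width, with the distance from the centre of the highest-scoring window peak on the horizontal axis (kb) and the authors' MACS score on the vertical axis. The peaks scoring 129.13 and 241.41 stand above all others shown, and lower peaks follow to the right up to the window's edge.

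The strongest site of the locus, by score, lay at 738059 to 740145. It scored 241.41 over 2087 bp, the 81st highest score of the whole list and the 26th on 3L. Among the 173 peaks of the list within 10% of its width (itself included, as in every such count below), 5.78% scored at least as high, and their median was 93.29. It was therefore high for its width as well as in rank.

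The second site by score was the broadest of the whole arm. It spanned 723655 to 729935, and its 6281 bp made it the widest peak of the 2565 on 3L and the 4th widest of the 11165 in the list. It scored 129.13, which ranked 480th in the list. The list held 1 other peak within 10% of that width, so a comparison of scores at like width has little to rest on. The centres of these 2 sites were 12.3 kb apart, with 6 narrow peaks between them that scored 13.26 to 25.77.

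No other peak of the locus scored above 100. The 2 sites above were 5.13% of the 39 peaks, and on 3L 168 of 2565 peaks (6.55%) scored above 100. A further 5 window peaks scored between 50 and 100, 9 scored between 20 and 50, and 23 scored up to 20. Of the 2565 peaks on 3L, 274 scored between 50 and 100 and 729 between 20 and 50. The 23 window peaks scoring up to 20 were 59.0% of its peaks, close to the 54.3% on 3L. The 2 highest peaks held 28.1% of the summed score of 1318.62 and the 5 highest held 45.5%, shares that depend on the scale of the score.

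The next highest scores belonged to peaks on the right of the strongest site. A peak at 780233 to 781933 scored 91.33 over 1701 bp, near the median of 86.69 for the 243 peaks of like width. A compact peak at 769152 to 769665 scored 80.53 over only 514 bp. Of the 1287 peaks of like width, 3.89% scored at least as high, and their median was 21.37. By this measure it stood higher for its width than the strongest site. The next, at 759452 to 761138, scored 57.54 over 1687 bp, below the median of 86.20 for its width.

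Wide peaks made up a larger share of the window than of the arm. Of the 39 peaks, 4 were wider than 2 kb (10.3%), whereas 70 of 2565 were on 3L (2.73%). These were the 6281 bp and 2087 bp sites, a peak of 3091 bp at 763907 to 766997, and a peak of 2037 bp at 775972 to 778008. The 3091 bp peak scored 46.30, and 97.9% of the 47 peaks of like width scored at least as high, with a median of 149.88. The 2037 bp peak scored 41.75, and 90.3% of 176 like peaks reached at least that score, with a median of 92.30. These 2 peaks were broad and low. A share of wide peaks above that of the arm was not particular to the locus. In the adjoining windows, 2 of 17 peaks on the right and 0 of 29 on the left were wider than 2 kb. Among other dense windows the counts were 5 of 37 at 8630000, 2 of 45 at 17940000, 2 of 36 at 10920000 and 0 of 41 at 16125000.

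Low scores for the width were found in much of the window. Among the 9 window peaks wider than 1 kb, 7 scored below the median of list peaks of like width, the exceptions being those at 738059 and 780233. Without the 6281 bp peak, which has 1 other peak to be compared with, the count was 6 of 8. On 3L 48.3% of the 319 peaks wider than 1 kb did so. Over all widths the count was 24 of 39 (61.5%), against 47.6% on 3L. Leaving aside the 6281 bp peak, the lowest for its width was a peak of 853 bp at 778742 to 779594, with a score of 9.96. Of 800 peaks of like width, 99.8% scored at least as high. Within the window score still rose with width, with a Spearman's rho of 0.792 and a Pearson's r of 0.625 over the 39 peaks, beside 0.766 and 0.669 over 3L. These coefficients describe peaks of 1 list that share their libraries and caller.

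**Figure D2:**
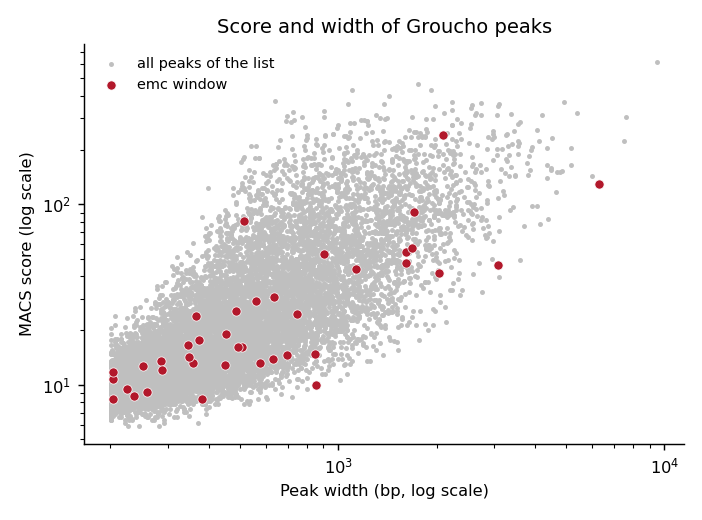
Score against width for the 11165 peaks of the list (grey) and the 39 peaks of the emc window (red), both axes logarithmic, width in bp and score as the MACS score. Most of the red points wider than 1 kb lie in the lower part of the grey cloud, and the peak scoring 241.41 lies in its upper part.

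Along the window the peaks changed in kind. In steps of 17 kb from the left, the 5 parts held 2, 11, 11, 8 and 7 peaks, and 39.9%, 40.0%, 52.7%, 53.4% and 21.3% of their length lay inside peaks. The first part owed most of its cover to the single 6281 bp peak. The second held the strongest site among narrow peaks, with a median width of 484 bp and a median score of 14.56. The next parts, the third and the fourth from the left, held no peak above 100, yet the largest shares of covered bases, and their median scores were 24.14 and 33.14. The last part held only peaks of 203 to 847 bp, with scores from 8.33 to 30.48.

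Gaps between neighbouring peaks were short. The median gap from the end of one peak to the start of the next was 894 bases over the 38 gaps in the window, against 2202 bases over 3L. Of the 38 gaps, 23 (60.5%) were shorter than 1 kb, as were 34.6% on 3L. Gaps under 200 bases were 6 of the 38 (15.8%), against 7.76% on 3L. Gaps shorter than 100 bases occurred 4 times, a count not made for 3L. One of them, of 51 bases, parted the peaks at 735688 to 736384 and 736436 to 736919. Another group, at 795373 to 796294, was made of 3 narrow peaks parted by 62 and 71 bases. Within 10 kb of their centres, 38 of the 39 had 4 or more further peaks (97.4%), against 54.3% on 3L, and the median was 9 others. From centre to centre the median distance was 1541.75 bases. In the other dense places on 3L named below it was shorter, at 1423.5, 1384.5, 1496 and 1388 bases. The window was known to be dense, which favours short gaps and near neighbours, so nothing is read from these gaps or shares.

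Peaks less than 5 kb apart formed 1 long chain through the locus. It ran from 723655 to 786537, held 33 peaks and spanned 62.9 kb, of which 52.4% lay inside peaks. The longest gap in it, of 2846 bases, lay at 752271 to 755116. By peak number it ranked 6th of 4075 such chains on the 5 large arms and 3rd of 877 on 3L. The chain ended at gaps of 5011 bases on the left and 5104 bases on the right, both barely past the limit of 5 kb. The 6 window peaks outside it were 1 at the left edge and 5 at the right, which belonged to chains that ran past the window's edges.

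With the limit raised to 10 kb, the peaks of the locus belonged to the longest chain of the whole list. It ran from 603644 to 826000 on 3L, spanned 222 kb and held 91 peaks, the most of the 2647 chains formed at that limit. The next longest, on 2L from 14451714 to 14594718, spanned 143 kb and held 66 peaks. Besides the 39 window peaks, the long chain held 41 peaks to the left of the window and 11 to the right. Peaks covered 34.0% of its length, 5 of its peaks scored above 100, and its median score was 18.38, the same as that of the list. The chain ended at peak-free stretches of 10043 and 11139 bases, again just past the limit, and its longest inner gap was 8332 bases. The emc window was thus a stretch of a longer series of peaks.

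The peaks at the window's edges show the same continuity. The first peak inside, at 718285 to 718643, scored 13.26, and the last outside on the left, at 714217 to 714423, scored 9.96. On the right, the last peak inside, at 797227 to 797783, scored 29.17. The first outside, at 799669 to 800772, scored 51.54 and crossed the window's edge, its centre lying just beyond.

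The window was then set beside the 285 other complete windows of 85 kb on 3L, laid end to end from its own start. Of these, 0 (0%) held 39 peaks or more. The others held 0 to 33 peaks, with a median of 8 and quartiles of 3 and 13, and 35 held none. None of the 285 had as many bases inside peaks either (0%), the highest being 32772 bases, or 38.6%, and the median 4184 bases. This is 1 layout of many, with borders that cut through groups of peaks. Windows of the same size were also moved along the arm in steps of 5 kb, leaving out those that overlapped the emc window. Of the 4823 kept, 12 held at least as many peaks and 5 covered at least as many bases. These windows overlap each other and share peaks. Around emc itself, the moving windows that began at 725000 and 730000 held 42 peaks each, the most of those overlapping the locus.

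**Figure D3:**
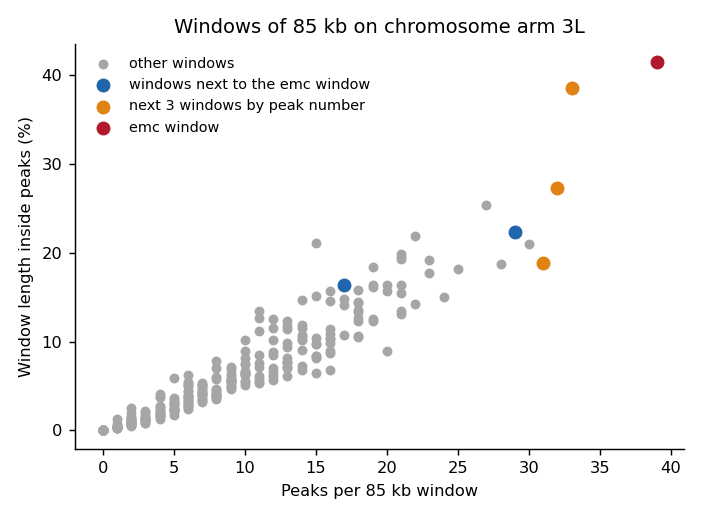
Peaks per window and the percentage of the window's length inside peaks, for the 286 windows of 85 kb on 3L. Each point is 1 window. The emc window, with 39 peaks and 41.5%, lies at the upper right end, and the next 3 windows by peak number held 31 to 33 peaks.

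By score the window stood lower among the others than by peak number. Its summed score of 1318.62 was reached by 3 of the 285 windows (1.05%). Its highest score was reached by 16 of the 285 (5.61%). Its median score of 16.25 was reached by 163 of the 250 that held a peak (65.2%), and by 85 of 116 that held at least 10 peaks (73.3%). The 65.2% became 27.6% with the 50% of highest scores and 48.7% among peaks wider than the median. After joining peaks less than 1 kb apart it became 26.8%. The widest peak of the emc window was wider than the widest of each of the 250.

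Other dense places on the arm were like it in some measures of layout and differed in others. With moving windows, the densest places clear of emc were at 17940000 to 18025000 with 45 peaks, at 16125000 to 16210000 with 41, and at 8630000 to 8715000 with 37. The moving windows overlapping the emc window reached 42 peaks, fewer than the 45 at 17940000. The other places were set where their peak number was highest, whereas the emc window kept its given borders. Peaks covered 35.5%, 30.0% and 42.9% of the windows at these other places. Around emc, the moving windows with 42 peaks each, at 725000 and 730000, had 43.4% and 37.8% inside peaks. The median scores at the other places, 18.00, 24.48 and 19.85, were all above the 16.25 of the emc window. The window at 8630000 held 9 peaks above 100 and 5 wider than 2 kb, with a highest score of 312.93. The window at 16125000 held 4 above 100 and 0 wider than 2 kb, its widest peak being 1567 bp. The window at 17940000 held 2 peaks above 100 and 2 wider than 2 kb, with a highest score of 234.33. Of its peaks wider than 1 kb, 2 of 6 scored below the median at like width. In the windows at 16125000 and 8630000, 2 of 4 and 3 of 11 did so. A further place, at 10920000 to 11005000 with 36 peaks, was like emc in this respect, with 8 of 9. Over all widths the counts in these windows, in the order named, were 20 of 45 (44.4%), 18 of 41 (43.9%), 21 of 37 (56.8%) and 24 of 36 (66.7%). The share was 61.5% in the emc window and 47.6% on 3L.

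Next to the window, the peak number fell off unevenly. The adjoining window on the left held 29 peaks and covered 22.4% of its length, and the one on the right held 17 and covered 16.4%. Their highest scores were 118.42 and 119.12, each from the only peak above 100 in its window. The left neighbour ranked 6th in peak number of the 286 windows and had a median peak width of 640 bp, against 507 bp in the emc window, but held no peak wider than 2 kb. The right neighbour held 2 peaks wider than 2 kb. The window one step further left held 22 peaks, and the one further right held 10, near the median of 8.

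**Figure D4:**
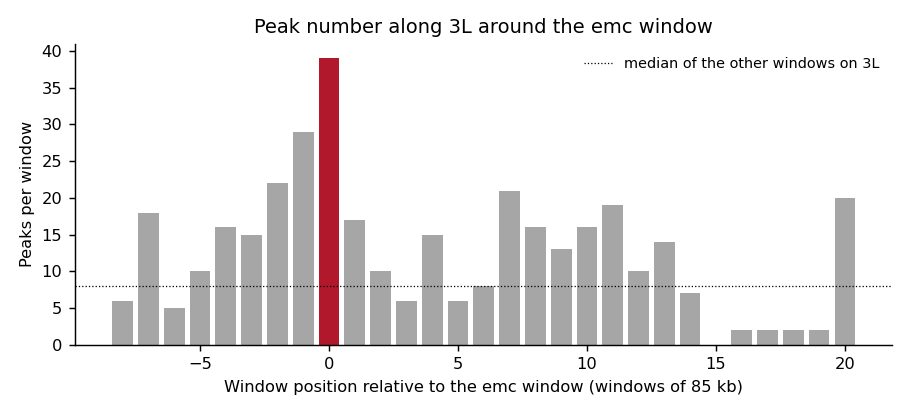
Peaks per window of 85 kb along 3L around the emc window, in red, with the window's place counted from it on the horizontal axis and the number of peaks on the vertical axis. The dotted line is the median of the other windows on 3L, 8 peaks. The numbers rise over the windows to the left, from 22 to 29 to 39, and drop to 17 on the right.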

How the data were processed

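Per the submitters' processing notes, the build was BDGP5 and the tools were BWA, MACS2 and CASAVA 1.7.0.2 and 1.7.0.3. Per the file headers, coordinates are on FlyBase release 5, 1-based. The score of each peak is the deposited value of the authors' caller, MACS. Not given in the sources used here were its scale, the peak threshold, read filters and the pooling of libraries, and the depth is unknown. Scores were used only to rank and describe peaks within the list. Libraries were grouped by title, and no column belongs to a single library. Start and end of each peak were taken as deposited by the authors, with 0 columns of other samples.

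Window members were peaks with their centre in the window. Gaps count the bases between peaks, and chains join peaks with gaps under 5 kb. The arm's end was taken as the end of its last peak. Peaks of like width are those within 10% of a peak's width. Named peaks were those scoring above 100, the 5 highest, the 3 widest and those at the edges; the others named, as extremes of width, gap or score for width, were chosen after their values were seen. The window, lists and measures were chosen with earlier results of these data known, and no p-value was computed. Counting steps were tested on simulated lists of single-base peaks, which do not test the handling of peak width, cover by wide peaks or joining. Comparison at like width, chains at 10 kb and windows with at least 10 peaks were added after seeing the data. The RefSeq table is on release 6 and served for gene order only, so sequences were not analysed here. Calculations used Python 3.11.15, numpy 2.4.6, scipy 1.17.1, pandas 2.3.3 and matplotlib 3.10.9.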

Additional observations from a re-analysis of the deposited data

How the results depend on the processing

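Of 68 alternatives, 51 stayed within the limits set, which were 1.5 times a count or the exact 95% binomial interval of a share, and 17 moved. The 39 peaks became 17 with the 50% of highest scores, 22 among peaks wider than the median, 16 after joining peaks less than 1 kb apart, and 21 and 65 in windows of 42.5 and 170 kb (by construction). The share of other windows with at least as many peaks was 0% to 1.05% in all settings, and that for covered bases 0% to 0.351%. For the median score, the share of 65.2% became 27.6% with the highest scores, 48.7% among wide peaks, and 26.8% after joining, settings that leave out or fuse narrow, low peaks, and 73.3% among windows with at least 10 peaks. For the top score, 5.61% became 12.1% among windows with at least 10 peaks. The 38 of 39 peaks with at least 4 others within 10 kb became 10 of 17 with the highest scores. They became 19 of 22 among wide peaks and 4 of 16 after joining. These settings thin or fuse the list everywhere, and the shares on 3L under them were not computed. The 2 peaks scoring above 100 became 7 at a threshold of 50. On 3L 168 of 2565 peaks scored above 100, and a further 274 between 50 and 100. The 3 chains became 5 with the highest scores, 16 at a gap of 1 kb and 1 at 10 kb. No paired analysis was possible because the list holds no value per library, which also prevents leaving out a replicate. At unknown depth, peak-free sequence is not shown to lack Groucho.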

Other observations

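When gaps under 1 kb were closed, the 39 peaks became 16 stretches, of which 10 were single peaks. The longest stretch, at 775972 to 786537, joined 7 peaks over 10566 bp with a highest score of 91.33. The next, at 758146 to 766997, joined 6 peaks over 8852 bp with a highest score of 57.54. Both were longer than the 6281 bp peak, which remained a single peak and was the third longest. A stretch at 731865 to 736919 joined 6 peaks over 5055 bp, lay between the 2 highest peaks of the locus and reached a score of only 25.77. Whether each stretch is 1 broad site or several was not tested.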
